A study of Mus musculus with 18 samples.

Results

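The genes described here are 40 immediate early and dissociation response genes, measured in 3 epithelial cell populations sorted from the mouse mammary gland. They were chosen by name: AP-1, Egr, Nr4a, Klf and Dusp family genes with other immediate early and heat shock genes, each taken as the row whose Ensembl identifier carries that symbol in the GENCODE M21 annotation. The count files list 52636 identifiers. All 40 genes were found, and 39 of them were among the 16471 genes with enough counts to be tested. The remaining one, Csrnp1, was listed at 0 in all 18 libraries. Other annotated genes share 100% of its exon bases, so its level is unknown. Here and below, a shared exon base is one inside the span of another gene, introns included, on either strand.

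The mice were nulliparous, 12 weeks of age and untreated, and every group carried an MMTV-Cre transgene, in which a mammary tumour virus promoter drives Cre recombinase in mammary epithelium and some other tissues; the labels name no floxed allele. Glands were digested with collagenase, hyaluronidase and DNaseI for 1 h at 37 degrees, then with dispase and trypsin, passed through a 40 um filter, and sorted. Basal cells (CD49f high, CD61 positive) form the contractile outer layer of ducts. The alveolar progenitors (AP) were the CD49f low, CD61 positive cells, also called luminal progenitors, and the hormone-sensing luminal cells (HSL) the CD49f low, CD61 negative cells, also called mature luminal cells. Each population has 6 libraries, numbered by sample from 1 to 6, and the series text names 6 animals. Total counts were 29899462 to 91095830 in basal, 37391691 to 62505465 in AP and 26516293 to 52404937 in HSL libraries. Undissociated tissue was not analysed here, so a level present in the gland and a level reached during digestion and sorting cannot be told apart.

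Immediate early genes are transcribed within minutes of a stimulus, because the factors that switch them on, such as serum response factor with its Elk partners and CREB, are already bound or waiting in the cell. Growth factor signalling through the ERK kinases, calcium, stress kinases and mechanical force all reach them. Many of their products are transcription factors, such as AP-1, Egr and Nr4a proteins, and others end the response: Dusp phosphatases switch kinases off, and Zfp36 proteins destroy short-lived messenger RNAs. Enzymatic digestion of a tissue is a known inducer of the same genes and of heat shock proteins, and they are common in RNA from sorted cells.

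The sorted populations carried their own markers. All 10 basal markers were lower in AP and in HSL than in basal cells, 7 of 9 tested AP markers were higher in AP than in basal cells, and all 10 HSL markers were higher in HSL than in basal cells. Markers of other cells of the gland were also read. The summed level of 12 leukocyte markers was 82.2 to 405 CPM in basal libraries, 11.6 to 132 in AP libraries and 6.87 to 199.9 in HSL libraries; CPM is the count per 1000000 counts of a library after TMM scaling. In every population it was highest in sample 1; of the 10 tested, 2 were lower in AP and 2 in HSL than in basal cells, and Itgam, which shares 99.1% of its exon bases with other genes, was listed at 0 in all libraries. The summed level of 10 fibroblast markers was 747 to 1193 CPM in basal libraries, 627 to 1598 in AP libraries and 44.4 to 114 in HSL libraries. For 10 endothelial markers the sums were 104 to 318, 48.3 to 126 and 87.8 to 219.8 CPM, and for erythroid markers 65.2 to 264, 13.4 to 69.7 and 9.36 to 32.4 CPM, in the same order. Sample 1 stood apart in other ways: of all tested genes, its basal library held the lowest value for 25.7% and the highest for 29.4%, more than any other basal library, and the same was true of its AP and HSL libraries. Its HSL library had 194 CPM of basal markers against 39.7 to 76.2 in the other HSL libraries. Summed markers of the library's own population were lowest in sample 1 each time. They were 29353 CPM against 41222 to 52231 in the other basal libraries. For AP they were 4298 against 9212 to 15141 CPM, and for HSL 5159.9 against 8299 to 9105 CPM. The counts of members called in each comparison are given with and without sample 1, and so are some gene values that rest on it.

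The 40 genes together took 1.47 to 3.24% of all counts in basal libraries (2.37% ± 0.635, SD, n = 6), 1.63 to 2.83% in AP (2.38% ± 0.445, n = 6) and 1.31 to 1.95% in HSL libraries (1.56% ± 0.232, n = 6). Basal and AP libraries overlapped over most of their range, and HSL samples 4, 5 and 6 (1.31, 1.43 and 1.45%) lay below every basal and AP library. Sample 1 held the lowest share among basal and among AP libraries, but at 1.72% the second highest among HSL libraries. In sorted bulk RNA, fewer cells that express a gene and less RNA per cell cannot be told apart.

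**Figure D1:**
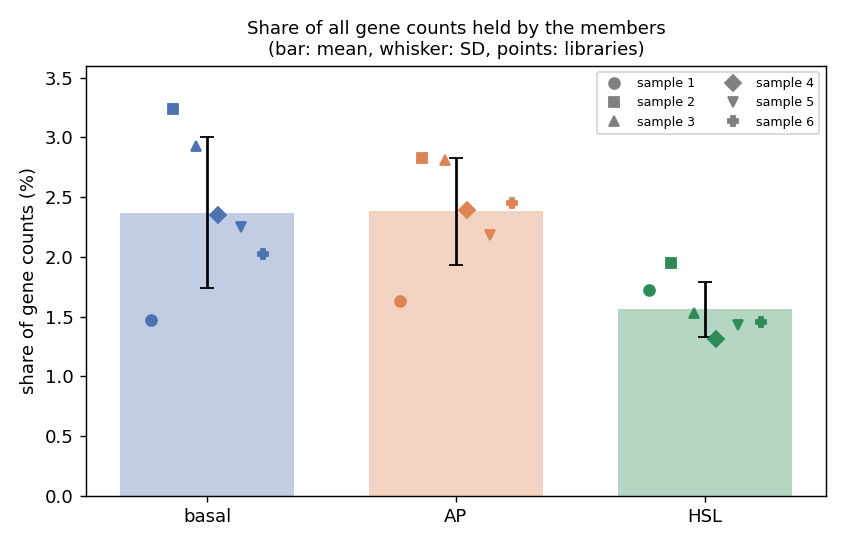
Share of all gene counts taken by the 40 genes, in percent, for each of the 18 libraries grouped by population, with bars for the mean, whiskers for the SD and marker shapes for the sample number. HSL libraries lie between 1.31 and 1.95%, and sample 1 is the lowest basal library at 1.47% and the lowest AP library at 1.63%.

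Between populations the genes were lower in HSL cells. Against basal cells 33 of 39 were called (84.6%, against 58.4% of all tested genes): 25 of 39 were lower in HSL (64.1%, where 30.6% of all tested genes were), and 8 were higher (20.5%, against 27.8% of all genes). Against AP cells 27 were called (69.2%, against 39.9% of all genes): 23 were lower in HSL (59.0%, against 20.1% of all genes) and 4 higher (10.3%, against 19.8%). A gene is called here at an adjusted p under 0.05 in edgeR's quasi-likelihood F test, adjusted over all tested genes by Benjamini-Hochberg. The median log2 fold change of the 39 genes was -1.37 for HSL against basal, where that of all tested genes was -0.06, and -0.89 for HSL against AP, where it was -0.01. Markers of some other cells were lower in HSL as well: all 10 fibroblast markers were lower than in basal cells (median log2 -3.5) and than in AP cells (-4.12). Of the endothelial markers 9 of 10 were lower in HSL than in basal cells and 1 of 10 than in AP cells, and of the erythroid markers 4 of 4 tested and 0 of 4. The part of these cells in the members' levels was not tested.

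In all, 21 genes were lower in HSL than in both other populations (53.8%, against 13.9% of all genes): Fosl1, Fosl2, Maff, Mafk, Egr1, Egr2, Egr3, Nr4a1, Nr4a2, Nr4a3, Klf10, Dusp1, Dusp5, Dusp6, Ier2, Ier3, Btg2, Zfp36, Zfp36l1, Myc and Per1. These comparisons share the HSL libraries. Fosb, Jun, Klf2, Klf4 and Rhob were called in none of the 3 comparisons (12.8%, against 29.3% of all genes). For 20 genes every HSL library lay below every basal library (51.3%, against 20.1% of all genes), and for 14 every HSL library lay below every AP library (35.9%, against 11.0%). With the sample number as a block, 11 genes were higher in HSL than in basal cells (31.8% of all genes were) and 25 lower (35.5%), with Jund, Klf4 and Rhob added; against AP the block gave 5 higher (25.6%) and 24 lower (25.3%). Samples 1 to 3 alone gave 8 genes lower in HSL than in AP (6.23% of all genes were), and samples 4 to 6 alone gave 27 (22.9%). With samples 1 to 3 alone no member was called higher in HSL than in AP by edgeR (2.63% of all genes were). At an unadjusted p under 0.05 in that test, 1 was higher.

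AP and basal cells differed in fewer of these genes. Of 13 called (33.3%, against 44.7% of all genes), 5 were higher in AP (12.8%, against 21.5% of all genes) and 8 lower (20.5%, against 23.1%), shares below and near those of all genes, and the median log2 fold change was -0.12 against -0.00 over all genes. With the sample number as a block, 9 were higher (26.7% of all genes were) and 13 lower (28.4%). The block added Fosb, Nfkbia, Gadd45a and Per1 to those higher in AP, and Fos, Egr3, Dusp1, Klf2 and Maff to those lower. Samples 1 to 3 alone gave 2 higher (10.2% of all genes were) and 4 lower (11.9%), and samples 4 to 6 alone 11 (23.3%) and 11 (24.2%).

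**Figure D2:**
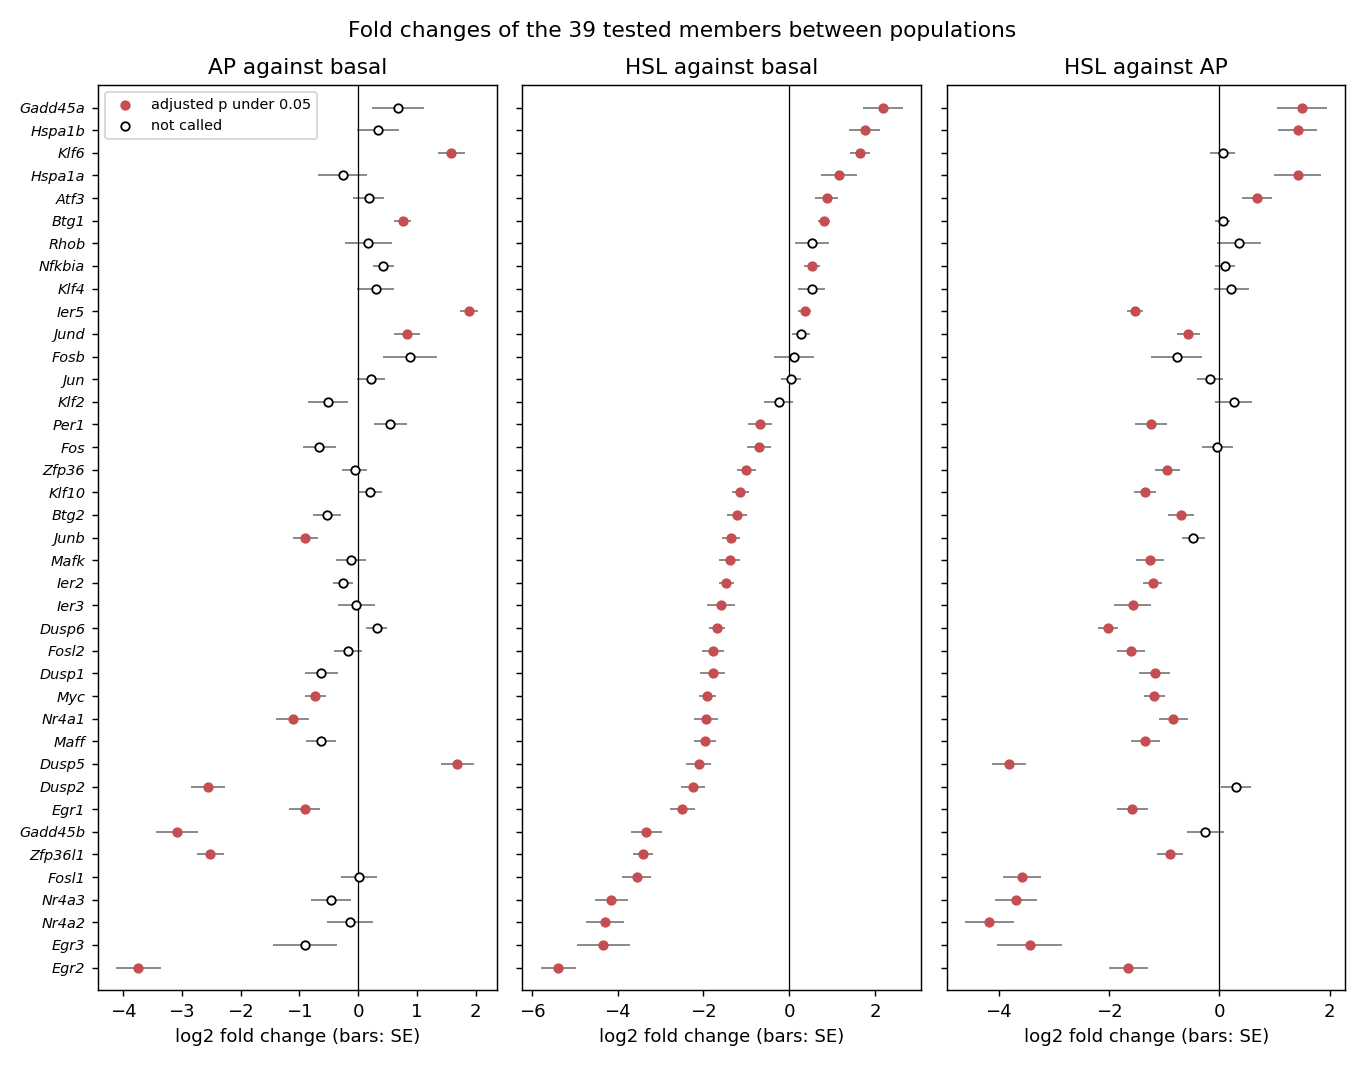
Log2 fold change of the 39 tested genes for AP against basal, HSL against basal and HSL against AP, with bars for the standard error, filled points for an adjusted p under 0.05 and open points for genes not called. In the HSL against basal panel 25 genes are called below 0 and 8 above it; in the AP against basal panel 8 and 5 are.

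The Fos proteins are the partners that give the AP-1 dimer its inducible part. Fos was one of the most abundant transcripts per length of any gene: by CPM per kilobase of exon it stood at rank 15 of all tested genes in basal cells, 18 in AP cells and 26 in HSL cells. Its level was 1429.9 to 5656 CPM in basal libraries (median 3434), 1381 to 3145 in AP (median 2163) and 1715 to 3229 in HSL (median 1893). The populations overlapped throughout, with sample 1 lowest in basal and AP. Fos was lower in HSL than in basal cells by -0.70 ± 0.28 (log2 ± SE, adjusted p = 0.038 by edgeR), in 5 of 6 samples, and that call was lost in 6 of 14 alternatives. Against AP its difference in HSL was -0.04 ± 0.28 (adjusted p = 0.933), with a 95% interval of -0.58 to 0.50.

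Fosb, a later Fos protein with a truncated isoform known from repeated stimulation, showed another order. Its level was 288 to 929 CPM in basal (median 334), 453 to 1725 in AP (median 659.6) and 201 to 1028 in HSL libraries (median 524). The populations overlapped, and no comparison was called without the block; with the block Fosb was higher in AP than in basal cells by 0.83 (adjusted p = 0.00246) and lower in HSL than in AP by -0.69 (adjusted p = 0.00901). Per kilobase of exon, the median ratio of Fosb to Fos was 0.0521 in basal libraries, 0.15 in AP libraries and 0.0922 in HSL libraries, and every AP library (0.0844 to 0.255) lay above every basal library (0.0344 to 0.0814).

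Fosl1 and Fosl2, Fos proteins that lack the transactivation domain of Fos, were low in HSL cells. Fosl1 was 77.5 to 234 CPM in basal (median 205), 57.6 to 244 in AP (median 211) and 10.9 to 20 in HSL libraries (median 14.5). All HSL libraries lay below all others, and the fold was 11.8 below basal (log2 -3.56 ± 0.34, adjusted p = 7.61e-08) and 11.9 below AP (-3.58 ± 0.34, adjusted p = 4.88e-07). Another annotated gene, Ccdc85b, shares 57.2% of the exon bases of Fosl1, so its level is uncertain. Fosl2 was lower in HSL by -1.78 ± 0.25 against basal and by -1.60 ± 0.25 against AP, again with no overlap. Neither was called between AP and basal cells, with 0.02 ± 0.31 for Fosl1 and -0.17 ± 0.24 for Fosl2.

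The Fos promoter is shown because Fos is the prototype of these genes; the 150 bases before the start are given from RefSeq (GRCm38.p6, chr12:85473740-85473889, plus strand), with TGACG, the core of the cyclic AMP response element, and TATAAA in capitals.
Fos: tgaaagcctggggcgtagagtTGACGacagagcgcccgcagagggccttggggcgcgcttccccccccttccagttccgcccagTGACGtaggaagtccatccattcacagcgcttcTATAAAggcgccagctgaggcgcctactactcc
TGACG, searched on both strands in windows of 300 bases around each start, was found in 26 of 44 windows of the 34 members with a RefSeq window (59.1%), against 20.8% of all 32851 windows. These 26 windows belong to 19 members, and windows of 1 gene can overlap. The full palindrome TGACGTCA, which contains TGACG, was found in 3 member windows (6.82%, against 1.79%), those of Btg2, Maff and Dusp1. TATAAA was found in 7 member windows (15.9%, against 13.6%). The AP-1 site TGANTCA was found in 2 member windows (4.55%, against 7.81%), those of Csrnp1 and Zfp36l1. A match describes the letters only.

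Of the Jun proteins, which form AP-1 with Fos or with each other, Junb was lower in both luminal populations. It was 1278 to 3417 CPM in basal (median 2980.4), 877 to 1661 in AP (median 1521) and 868 to 1226 in HSL libraries (median 1028). Every HSL library lay below every basal library, and AP overlapped basal only through basal sample 1. The differences were -0.90 ± 0.21 for AP against basal (adjusted p = 0.00175), -1.37 ± 0.21 for HSL against basal (adjusted p = 2.02e-05) and -0.47 ± 0.21 for HSL against AP (adjusted p = 0.0791).

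Jun was called in no comparison: 861 to 1768 CPM in basal (median 1015), 829 to 1898 in AP (median 1389) and 885 to 1751 in HSL libraries (median 1097), with adjusted p-values from 0.496 to 0.893. The median ratio of Junb to Jun per kilobase was 3.21 in basal, 1.42 in AP and 1.20 in HSL, and every basal library (2.06 to 4.17) lay above every AP and HSL library (0.961 to 1.81). Jund, the Jun protein that is present without stimulus, was 405 to 763 CPM in basal (median 462), 648 to 1289.9 in AP (median 939) and 503 to 890.1 in HSL libraries (median 573). It was higher in AP than in basal cells in 6 of 6 samples (0.84 ± 0.22, adjusted p = 0.00369). Its call against basal was lost with samples 1 to 3 alone (0.77, adjusted p = 0.184). Overlapping genes, a different one for each, share 21.6% of the exon bases of Jun and 55.1% of those of Jund.

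Atf3, a stress-induced repressor that binds AP-1 and CREB sites, was the AP-1 related gene that was highest in HSL cells. Its level was 1104 to 2778 CPM in basal (median 1728), 1150.3 to 2721 in AP (median 2075) and 1359 to 4196 in HSL libraries (median 3590). In 5 of 6 HSL libraries it was above every basal and AP library, and sample 1 was the exception. The difference was 0.87 ± 0.27 against basal (adjusted p = 0.0095; 0.90 and adjusted p = 0.000245 without sample 1, 0.71 and 0.0663 without sample 6) and 0.69 ± 0.27 against AP (adjusted p = 0.0483). The call against AP was lost in 10 of 14 alternatives, with log2 values from 0.48 to 0.76. By rank per kilobase Atf3 stood at 27 in basal cells, 17 in AP cells and 11 in HSL cells. Its median ratio to Fos per kilobase was 0.529 in basal libraries, 0.919 in AP libraries and 2.04 in HSL libraries. Maff and Mafk, small Maf proteins that lack a transactivation domain, were lower in HSL by -1.97 ± 0.26 and -1.39 ± 0.25 against basal and by -1.34 ± 0.26 and -1.26 ± 0.25 against AP.

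**Figure D3:**
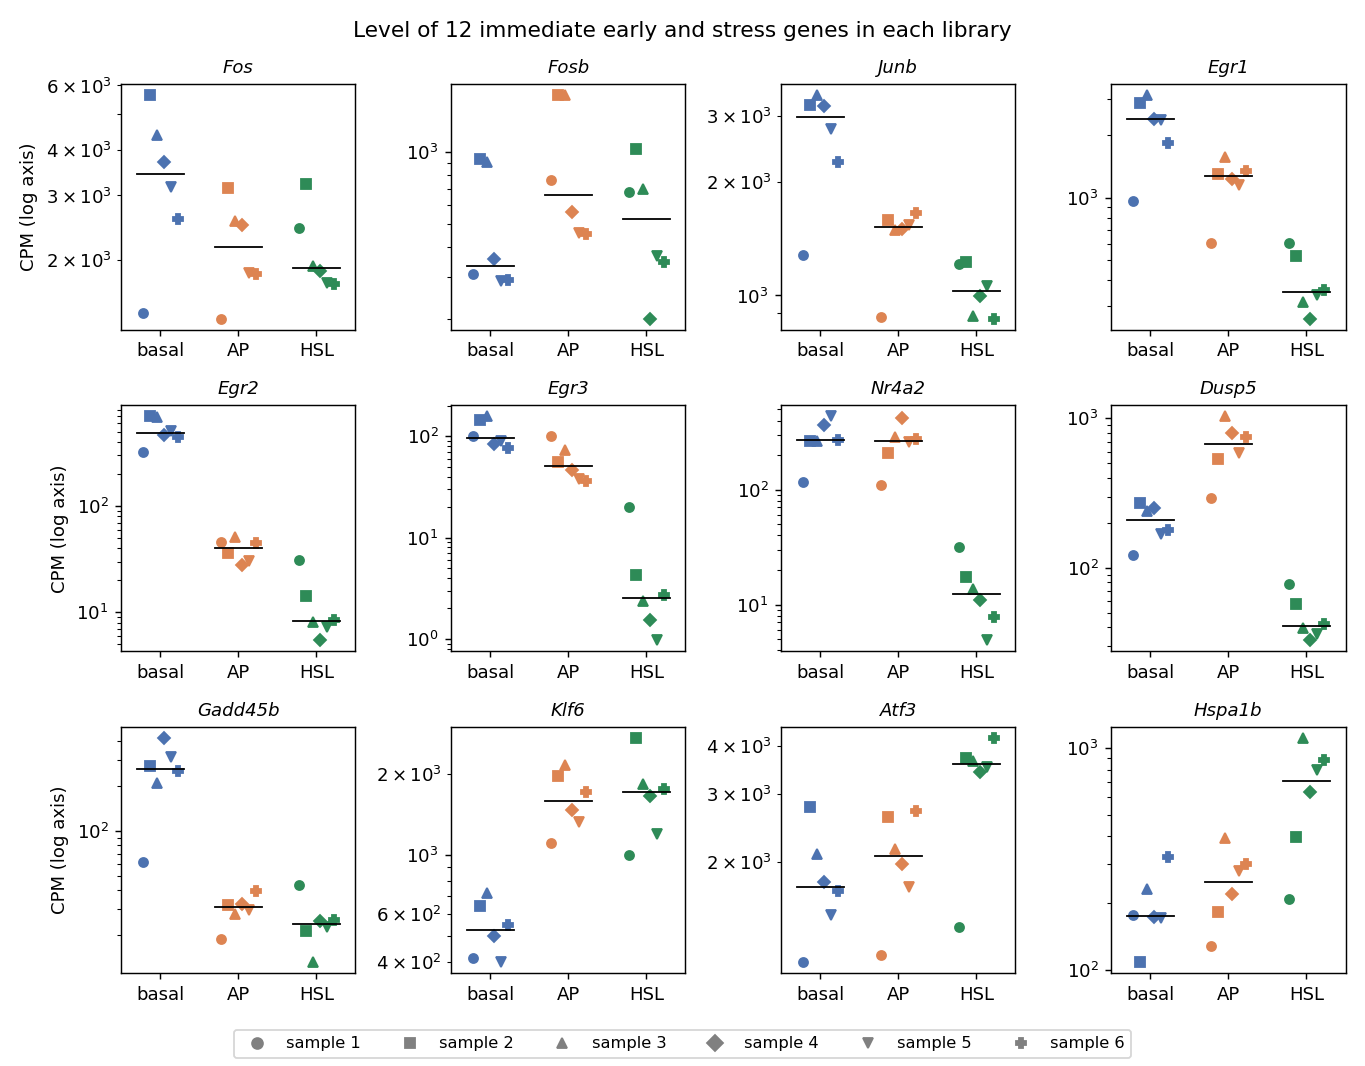
Level of 12 of the genes in CPM on a log axis in each library, with 6 libraries a population, marker shapes for sample numbers and a line at the median. Egr2, Gadd45b and Junb are highest in basal libraries, Dusp5 in AP libraries, and Atf3 and Hspa1b in HSL libraries other than sample 1.

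The Egr genes, zinc finger factors that follow ERK signalling, were highest in basal and lowest in HSL cells by their medians. Egr1 (chromosome 18, 34859823 to 34864984) was 966 to 3125 CPM in basal (median 2379), 602 to 1571 in AP (median 1265) and 262 to 602 in HSL libraries (median 350). Its differences were -0.91 ± 0.27 for AP against basal (adjusted p = 0.0112), -2.49 ± 0.29 for HSL against basal (adjusted p = 7.07e-07) and -1.58 ± 0.28 for HSL against AP (adjusted p = 0.000205). The HSL library of sample 1 lay just below the AP library of the same sample, both at 602 after rounding, and all HSL libraries were below all basal libraries.

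Egr2 (chromosome 10, 67535475 to 67542188) was far higher in basal cells than in the others: 323 to 699 CPM in basal (median 486), 27.8 to 50.7 in AP (median 40.5) and 5.46 to 31 in HSL libraries (median 8.29). No AP or HSL library came near a basal one. It was 13.3-fold lower in AP (log2 -3.74 ± 0.38, adjusted p = 2.36e-07) and 41.8-fold lower in HSL than in basal cells (-5.39 ± 0.41, adjusted p = 3.94e-09; -6.03 without sample 1). Between HSL and AP it differed by -1.65 ± 0.35 (adjusted p = 0.00105), with overlap only through HSL sample 1. The ratio of Egr2 to Egr1 per kilobase was 0.257 to 0.441 in basal and 0.0275 to 0.0996 in the luminal libraries. Basal markers were also highest in that HSL library, at 194 CPM, and their part in its Egr2 level was not tested.

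Egr3 (chromosome 14, 70077203 to 70082614) divided the luminal populations. It was 76.2 to 157 CPM in basal (median 95.5), 35.9 to 101 in AP (median 51.2) and 0.973 to 19.9 in HSL libraries (median 2.55). HSL lay below all other libraries, by 20.3-fold against basal (-4.34 ± 0.62, adjusted p = 8.7e-06) and 10.8-fold against AP (-3.44 ± 0.59, adjusted p = 0.000173). Without sample 1 these became -5.56 and -4.41, since sample 1 held the highest HSL value. The AP and basal difference was -0.90 ± 0.54 (adjusted p = 0.189; 0.0321 with the block).

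Serum response factor acts on Egr genes through CArG boxes, and the promoters of the 3 members with one in the RefSeq windows are shown, with the box in capitals (150 bases before the start, GRCm38.p6). Egr2 is at chr10:67537719-67537868, plus strand, Dusp5 at chr19:53528995-53529144, plus strand, and Zfp36 at chr7:28379229-28379378, minus strand.
Egr2: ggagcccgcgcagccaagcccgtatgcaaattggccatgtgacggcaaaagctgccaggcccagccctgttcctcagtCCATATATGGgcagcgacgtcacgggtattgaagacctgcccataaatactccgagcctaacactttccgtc
Dusp5: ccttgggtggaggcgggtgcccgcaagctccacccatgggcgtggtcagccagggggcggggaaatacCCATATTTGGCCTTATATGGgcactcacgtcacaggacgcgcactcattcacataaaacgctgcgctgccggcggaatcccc
Zfp36: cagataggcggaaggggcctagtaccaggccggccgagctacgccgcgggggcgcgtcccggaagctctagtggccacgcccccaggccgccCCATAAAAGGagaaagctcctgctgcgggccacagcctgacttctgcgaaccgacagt
The CArG box, searched on both strands, was found in 6 of 44 member windows (13.6%), against 1.63% of all windows. These windows belong to 3 of the 34 members with a RefSeq window. RefSeq lists 5 starts for Egr2, and 4 of their windows hold it. Some of these windows overlap, so the same Egr2 box is counted more than once. The 3 genes with a box had 3 different patterns across the populations: Egr2 was highest in basal cells, Dusp5 in AP cells, and Zfp36 was lower in HSL than in both others.

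The Nr4a genes encode orphan nuclear receptors that act without a ligand and are set by their own transcription. Nr4a2 (chromosome 2, 57106830 to 57124003) was 116 to 434 CPM in basal (median 269), 110 to 417 in AP (median 267) and 4.89 to 32 in HSL libraries (median 12.3). Basal and AP cells were not told apart (-0.14 ± 0.39, adjusted p = 0.799, with a 95% interval of -0.90 to 0.62). HSL lay below both with no overlap, 19.8-fold below basal (-4.30 ± 0.45, adjusted p = 1.88e-07) and 17.9-fold below AP (-4.17 ± 0.44, adjusted p = 1.32e-06).

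Nr4a3 followed the same order, with 37.8 to 102 CPM in basal (median 79.4), 20.7 to 99.8 in AP (median 49) and 2.42 to 7.83 in HSL libraries (median 3.62). It was 17.7-fold below basal (-4.15 ± 0.39, adjusted p = 4.73e-08) and 12.9-fold below AP (-3.69 ± 0.38, adjusted p = 8.94e-07). Nr4a1, the most abundant of the family by CPM, had smaller differences in HSL: 898 to 2421 CPM in basal (median 1192), 464 to 1024 in AP (median 559) and 240 to 580.3 in HSL libraries (median 338). It was lower in AP than in basal cells in 6 of 6 samples (-1.11 ± 0.28, adjusted p = 0.00286) and lower in HSL than in AP in 6 of 6 (-0.83 ± 0.27, adjusted p = 0.0214; 0.0606 without sample 4), with overlap. The median ratio of Nr4a2 to Nr4a1 per kilobase was 0.191 in basal libraries, 0.327 in AP libraries and 0.0311 in HSL libraries.

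The Krüppel-like factors went different ways. Klf6, a growth-restraining factor induced by injury, was 400.1 to 718 CPM in basal (median 523), 1107 to 2159.9 in AP (median 1584) and 996 to 2708 in HSL libraries (median 1702). Both luminal populations lay above every basal library, by 1.59 ± 0.23 for AP (adjusted p = 1.97e-05) and 1.65 ± 0.23 for HSL (adjusted p = 7.84e-06), and HSL and AP differed by 0.06 ± 0.23. Klf10, a TGF-beta early gene, was lower in HSL by -1.14 ± 0.19 against basal and -1.35 ± 0.20 against AP. Klf4, an epithelial differentiation factor, was 78 to 196 CPM in basal (median 109), 81.9 to 248 in AP (median 115) and 88.9 to 262 in HSL libraries (median 162). The populations overlapped, and Klf4 was called in no comparison; with the block it was higher in HSL than in basal cells by 0.53 (adjusted p = 0.00415). Myc, the growth regulator, stepped down from 351 to 743 CPM in basal (median 579) to 184 to 430 in AP (median 361) and 141 to 166 in HSL libraries (median 159). It was lower in AP than in basal cells by -0.73 ± 0.18 (adjusted p = 0.00341) and lower in HSL than in AP by -1.18 ± 0.19 (adjusted p = 6.78e-05).

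Dusp phosphatases remove the activating phosphates of MAP kinases and are induced by them. All 4 were lower in HSL than in basal cells, by -1.69 to -2.25. Dusp5 (chromosome 19, 53529109 to 53542431), a nuclear phosphatase of ERK, was 121 to 273 CPM in basal (median 209), 293 to 1030.2 in AP (median 669) and 32.8 to 77.5 in HSL libraries (median 40.7). The 3 populations did not overlap. Dusp5 was 3.24-fold higher in AP than in basal cells (1.69 ± 0.28, adjusted p = 7.8e-05) and 14-fold lower in HSL than in AP (-3.81 ± 0.31, adjusted p = 1.42e-07). Dusp6, the cytoplasmic ERK phosphatase, was lower in HSL than in AP by -2.01 ± 0.18 and was not called between AP and basal cells (0.32 ± 0.18, adjusted p = 0.153).

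Dusp1, which acts on JNK and p38 as well as ERK, was lower in HSL by -1.79 ± 0.29 against basal and -1.17 ± 0.28 against AP. Dusp2, a nuclear phosphatase best known from immune cells, was low overall: 15.6 to 23.5 CPM in basal (median 17.8), 2.45 to 4.18 in AP (median 3.26) and 2.3 to 7.59 in HSL libraries (median 2.98). It was 5.86-fold lower in AP (-2.55 ± 0.29, adjusted p = 8.86e-07) and 4.74-fold lower in HSL (-2.25 ± 0.28, adjusted p = 2.18e-06) than in basal cells. Summed leukocyte markers were also highest in basal libraries, and their part in the Dusp2 level was not tested. The Dusp1 promoter is shown as one of the 3 with the full palindrome TGACGTCA, in capitals (chr17:26508473-26508622, minus strand, GRCm38.p6).
Dusp1: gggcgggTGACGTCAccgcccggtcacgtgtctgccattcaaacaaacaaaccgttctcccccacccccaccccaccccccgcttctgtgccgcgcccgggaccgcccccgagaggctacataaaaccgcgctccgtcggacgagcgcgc

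Zfp36 and Zfp36l1 bind AU-rich messenger RNAs and speed their decay. Zfp36 was lower in HSL by -1.0 ± 0.23 against basal and -0.94 ± 0.23 against AP. Zfp36l1 was 16.2 to 40.9 CPM in basal (median 32.9), 3.86 to 7.77 in AP (median 5.36) and 2.22 to 4.11 in HSL libraries (median 2.59). It was 5.72-fold lower in AP and 10.6-fold lower in HSL than in basal cells (-2.52 ± 0.23, adjusted p = 7.97e-08, and -3.41 ± 0.24, adjusted p = 1.85e-09). Other annotated genes, a different one for each, share 36.7% of the exon bases of Zfp36 and 90.2% of those of Zfp36l1, so both levels are uncertain. Nfkbia, the inhibitor that holds NF-kB in the cytoplasm and is induced by it, was higher in HSL than in basal cells in 6 of 6 samples (0.53 ± 0.18, adjusted p = 0.016; 0.0635 without sample 4 and 0.052 without sample 6).

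The Ier genes, named only for their early induction, split. Ier2 was 546 to 899 CPM in basal (median 799), 399.9 to 732 in AP (median 657) and 212 to 355 in HSL libraries (median 257). Ier3 was 248 to 694 in basal (median 528), 127 to 824 in AP (median 528) and 124 to 237 in HSL libraries (median 154). Neither was called between AP and basal cells (-0.26 ± 0.17 for Ier2 and -0.03 ± 0.32 for Ier3). Both were lower in HSL, Ier2 by -1.47 ± 0.17 against basal (adjusted p = 8.41e-07) and Ier3 by -1.60 ± 0.33 (adjusted p = 0.000381). Ier5, which works with heat shock factor HSF1, had the largest rise of the 39 genes in AP against basal cells: 186 to 315 CPM in basal (median 221), 657 to 1043 in AP (median 892) and 240.4 to 378 in HSL libraries (median 310.5). AP lay above all other libraries, 3.7-fold above basal (1.89 ± 0.16, adjusted p = 1.61e-08), while HSL exceeded basal by 0.36 ± 0.15 (adjusted p = 0.0472). That call against basal was lost in 11 of 14 alternatives, with log2 values from 0.14 to 0.52.

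Among growth arrest genes, Gadd45b and Gadd45a, stress sensors that bind cell cycle and kinase proteins, stood in opposite orders. Gadd45b (chromosome 10, 80930073 to 80932204) was 61.5 to 418 CPM in basal (median 262), 18.8 to 39.4 in AP (median 30.7) and 13.3 to 43.4 in HSL libraries (median 23.9). It was 8.47-fold lower in AP (-3.08 ± 0.36, adjusted p = 1.18e-06) and 10.1-fold lower in HSL (-3.33 ± 0.36, adjusted p = 3.14e-07) than in basal cells, with no overlap. Gadd45a was 5.85 to 36.3 CPM in basal (median 25.4), 7.67 to 57.6 in AP (median 42.1) and 40.1 to 174 in HSL libraries (median 99.1). Every HSL library lay above every basal one, by 2.18 ± 0.47 (adjusted p = 0.000577), and HSL exceeded AP by 1.5 ± 0.46 (adjusted p = 0.0136; 1.41 and 0.0573 without sample 3). A neighbouring transcript shares 48.7% of the exon bases of Gadd45a. Btg1, an antiproliferative gene, was 119 to 159 CPM in basal (median 138), 172 to 277 in AP (median 237) and 154 to 275 in HSL libraries (median 258), and it was higher in AP (0.76 ± 0.14, adjusted p = 0.000164) and HSL (0.82 ± 0.14, adjusted p = 5.03e-05) than in basal cells. Its relative Btg2, a p53 target, was lower in HSL than in basal cells by -1.22 ± 0.24 and than in AP by -0.69 ± 0.24. The call against AP was lost in 5 of 14 alternatives: without sample 3, 4, 5 or 6 (adjusted p = 0.104, 0.0637, 0.0716 and 0.1) and with samples 1 to 3 alone (0.474).

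The inducible heat shock protein 70 genes were highest in HSL cells. Hspa1b was 109 to 323 CPM in basal (median 176), 128 to 393 in AP (median 249.5) and 209 to 1109 in HSL libraries (median 713). HSL libraries overlapped the others only through sample 1, the lowest of them. Hspa1b was 3.38-fold higher in HSL than in basal cells (1.76 ± 0.36, adjusted p = 0.000358) and 2.68-fold higher than in AP (1.42 ± 0.35, adjusted p = 0.00362), in 6 of 6 samples each. Hspa1a was 23.7 to 90.1 CPM in basal (median 45.6), 17 to 77.1 in AP (median 38.2) and 23.2 to 171 in HSL libraries (median 119). It was higher in HSL by 1.16 ± 0.42 against basal (adjusted p = 0.0246) and 1.42 ± 0.42 against AP (adjusted p = 0.0121). Its call against basal was lost when any of samples 2, 3, 4 or 5 was left out (adjusted p from 0.055 to 0.0963), and its call against AP without sample 5 or 6 (0.0522 and 0.0508).

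The 2 genes are near-identical copies, so reads could be split between them, and Hspa1a shares 75% of its exon bases with another annotated gene. Their promoters show how close they are: the 150 bases before the start differ at 1 base. The heat shock element unit GAANNTTC, in capitals, is in both (GRCm38.p6, minus strand, chr17:34972157-34972306 for Hspa1a and chr17:34959239-34959388 for Hspa1b).
Hspa1a: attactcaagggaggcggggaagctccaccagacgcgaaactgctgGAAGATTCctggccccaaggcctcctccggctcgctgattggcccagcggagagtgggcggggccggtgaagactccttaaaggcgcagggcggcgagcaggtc
Hspa1b: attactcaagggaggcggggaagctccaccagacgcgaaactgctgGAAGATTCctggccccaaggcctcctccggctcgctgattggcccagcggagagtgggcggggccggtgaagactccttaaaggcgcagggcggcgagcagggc
GAANNTTC, searched on both strands, was found in 4 of 44 member windows (9.09%), against 7.86% of all windows. Other chaperones did not follow. Of 16 listed heat shock factors and chaperones, 2 were higher in HSL than in basal cells and 7 lower (27.8 and 30.6% of all genes were). Hspa4 was higher (1.08 ± 0.16, adjusted p = 1.3e-05) and Bag3 (-1.90 ± 0.20, adjusted p = 1.78e-07) and Cryab (-2.73 ± 0.36, adjusted p = 3.32e-06) lower, while Hsp90ab1 (0.19 ± 0.15) and Hspa5 (0.01 ± 0.21) were not called.

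Levels also differed by sample number. With population and sample number in 1 model, 16 of 39 genes differed between sample numbers (41.0%, against 25.4% of all genes), and 14 did without sample 1. The share of all genes was not counted for the run without sample 1, in which Atf3, Maff, Mafk and Myc were no longer called. Over the 3 populations, sample 1 held the lowest mean deviation for 25 of the 39 genes and sample 2 the highest for 20. That count was not made over all genes. In basal and AP cells sample 1 was the lowest library for 26 and 27 of the 39 genes (66.7 and 69.2%, against 25.7 and 27.9% of all genes). In HSL cells sample 1 was the highest library for 15 (38.5%, against 30.3% of all genes) and the lowest for 9 (23.1%, against 26.6%). Both HSL shares were near those of all genes. Without it, 7 members were called up (25.1% of all genes were) and 12 down (25.7%) for AP against basal cells. In HSL, counted against basal cells, there were 7 (30.3%) and 25 (34.5%), and for HSL against AP 4 (23.3%) and 25 (24.7%). Without sample 1, Fos, Egr3, Dusp1 and Maff became called lower in AP than in basal cells, and Dusp6 and Gadd45a higher. Junb and Gadd45b became called lower in HSL than in AP. The call of Ier5 in HSL against basal cells was lost (0.21, adjusted p = 0.179 by edgeR).

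Rhob, a small GTPase gene induced by stress, had the smallest p for sample number (adjusted p = 9.22e-06) and was called in no comparison of populations without the block; with it, HSL exceeded basal by 0.51 (adjusted p = 0.000353) and AP by 0.39 (adjusted p = 0.00456). Its level in samples 1 to 6 was 116, 163, 129, 53.4, 51.7 and 65.5 CPM in basal libraries. In AP libraries it was 169, 178, 134, 59.1, 56.5 and 54.5 CPM, and in HSL libraries 157, 269.8, 165, 82.5, 74.2 and 87.5. Samples 1 to 3 were above samples 4 to 6 in each population. Klf2, a factor of quiescent endothelial and immune cells, did the same (adjusted p = 0.00019), with 57.8, 107 and 82.7 CPM in samples 1 to 3 against 36.9, 36.5 and 42.1 in samples 4 to 6 of the basal population. The labels give no batch that divides samples 1 to 3 from samples 4 to 6.

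Gadd45a went the other way (adjusted p = 9.56e-05): samples 1 to 3 had 40.1, 80 and 88.9 CPM in HSL libraries against 174, 158 and 109 in samples 4 to 6, and they were lower in basal and AP libraries as well. Fosb (adjusted p = 0.000707) was highest in samples 2 and 3, at 1724 and 1725 CPM in AP libraries against 453 to 762 in the other AP libraries. Jund (adjusted p = 0.000324) was likewise highest in samples 2 and 3 and lowest in sample 1 in every population. Leukocyte markers summed to 405, 384 and 159.5 CPM in samples 1 to 3 and 82.2, 111 and 205 in samples 4 to 6 of the basal population. In AP libraries the sums were 132, 105 and 44.9 against 11.6, 21 and 29.5, and in HSL libraries 199.9, 102 and 50.3 against 6.87, 6.87 and 18.6. Their part in the differences of Rhob, Klf2, Fosb and Gadd45a between samples was not tested.

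**Figure D4:**
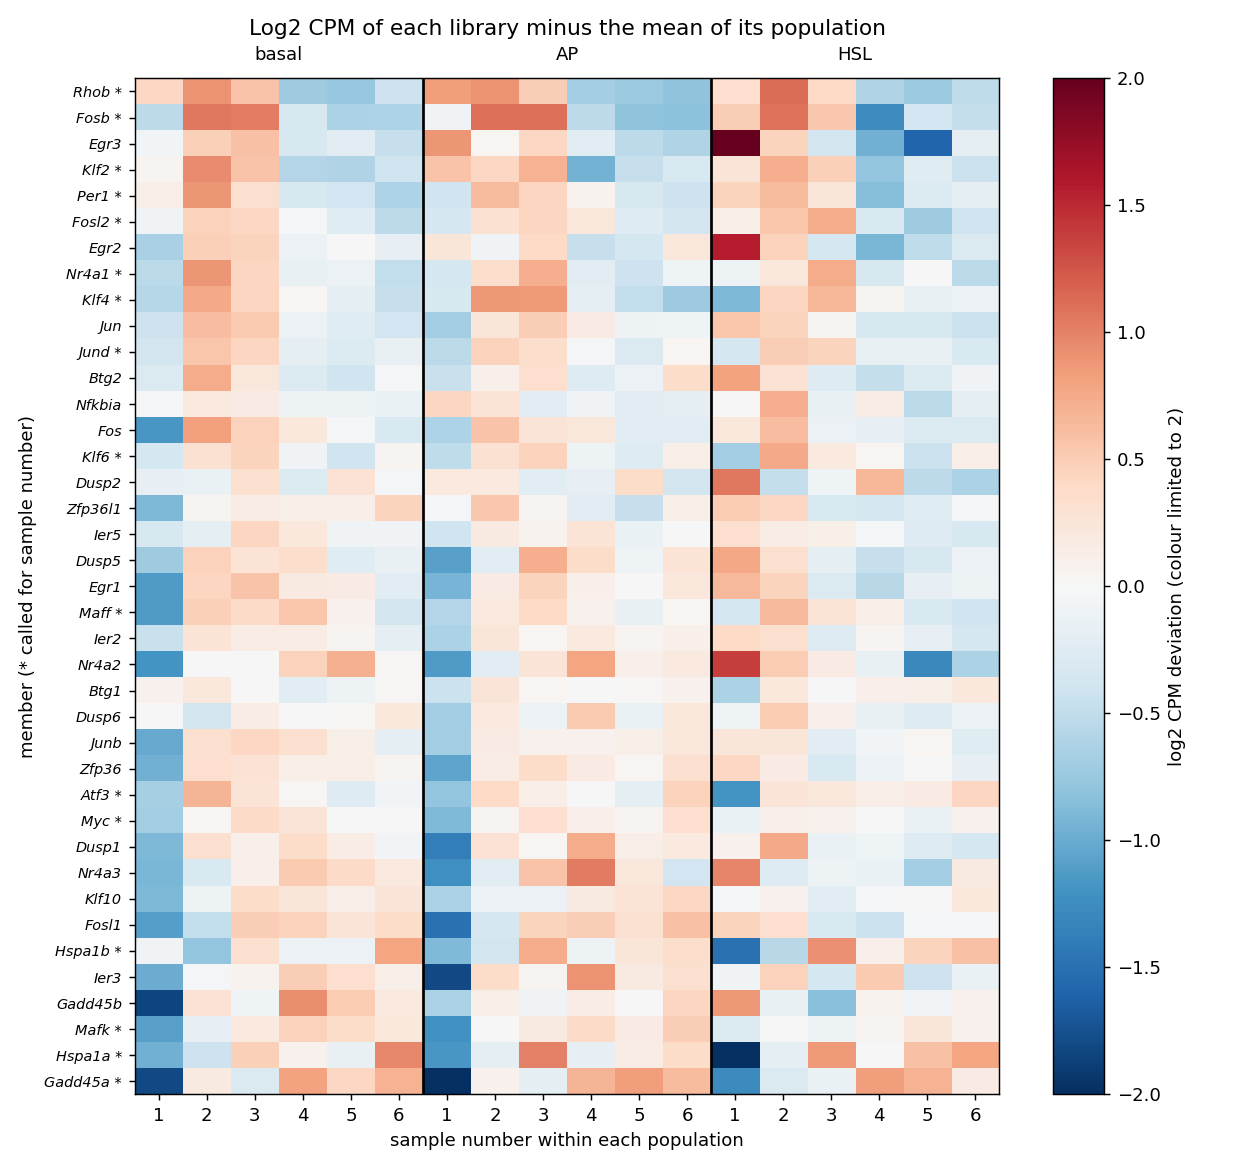
Deviation of each tested gene from the mean of its population in log2 units, for the 18 libraries in order of population and sample number, with genes sorted by the difference of samples 1 to 3 from samples 4 to 6 and a star for those called for sample number. Rhob and Klf2 are above the mean in samples 1 to 3 of each population, Gadd45a mostly below it, and sample 1 of basal and AP libraries is below it for most genes.

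After the population means were removed, the first-wave genes varied together across libraries. For a core list of 12 (Fos, Fosb, Jun, Junb, Egr1, Ier2, Atf3, Dusp1, Btg2, Zfp36, Nr4a1 and Klf6), the median Spearman correlation of pairs was 0.58 over 18 libraries and 0.57 over the 15 without sample 1. For all pairs of the 39 members it was 0.29 and 0.20, and for all pairs of 7638 genes at 20 CPM or more it was 0.01 in both. These are descriptions: libraries of the same sample number were taken to be paired, and depth differs between them. The core list was chosen with earlier results of these data known. Its genes averaged 493 (Dusp1) to 2617 CPM (Fos), far above the limit of 20 CPM. The part of level in the correlations was not tested. Ranked by the smaller of the correlations over 18 and over 15 libraries, the leading pairs were Hspa1a with Hspa1b (0.93 over 18 libraries), Fos with Jun (0.91) and Ier2 with Dusp1 (0.86). Reads could be split between the near-identical Hspa1a and Hspa1b, and the part of that in their correlation was not tested. Correlation with the mean of the other core genes was 0.93 for Jun, 0.91 for Fos and 0.88 for Egr1, but 0.15 for Klf10, -0.05 for Hspa1a, -0.17 for Gadd45a and -0.24 for Hspa1b. The heat shock and Gadd45a levels did not follow the first-wave genes from library to library.

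Among 7601 other genes at 20 CPM or more, those closest to the core mean over 18 libraries were Tor1aip1 (0.93), Ddr1 (0.91), Irs2 (0.89), Trib1 (0.89), Tigd2 (0.87), Zfp395 (0.87), Ctdsp2 (0.87), Fbxo32 (0.86), Prelp (0.86) and Cebpd (0.85). Over the 15 libraries without sample 1 these had correlations of 0.55 to 0.94, and the list was led by Calcoco1 (0.96) and Tigd2 (0.94).

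Genes around the response were counted from lists. Of all tested genes, 27.8% were higher in HSL than in basal cells and 30.6% lower. Of 17 tested genes of the signal input from ERK to serum response factor and CREB, 4 were higher in HSL than in basal cells and 9 lower. Egfr, the receptor for EGF and amphiregulin, was lower in AP than in basal cells (-0.91 ± 0.34, adjusted p = 0.0383) and lower still in HSL (-4.28 ± 0.39, adjusted p = 3.87e-08, with 214 ± 57.8 CPM in basal libraries, 114 ± 19.7 in AP libraries and 10.9 ± 7.91 in HSL libraries, SD, n = 6). Rps6ka1, a kinase below ERK, was higher in HSL than in basal cells (0.61 ± 0.11, adjusted p = 0.000145), while Elk1 and Mapk3 were called in no comparison; with the block Mapk3 was higher in AP than in basal cells by 0.27 (adjusted p = 0.013). Srf was listed at 0 in all libraries, but other annotated genes share 100% of its exon bases, so its level is unknown. Of 14 other bZIP factors, 2 were higher in HSL than in basal cells and 9 lower, among them Cebpb (-3.59 ± 0.24, adjusted p = 8.91e-10) and Atf4 (-1.77 ± 0.20, adjusted p = 6.89e-07).

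Targets shared by serum response factor and YAP are known to respond to mechanical force. Of 14, 5 were higher in AP than in basal cells (21.5% of all genes were) and 8 lower (23.1%). In HSL against basal cells, 3 were higher (27.8%) and 10 lower (30.6%). Ccn2, a matricellular growth factor, was lower in AP by -6.39 ± 0.55 and in HSL by -8.84 ± 0.62, and Thbs1 (thrombospondin) by -2.89 ± 0.48 and -5.69 ± 0.54. Hbegf, an EGF receptor ligand, resembled Dusp5: it was higher in AP than in basal cells (1.92 ± 0.36, adjusted p = 0.000249) and lower in HSL than in AP (-2.89 ± 0.37, adjusted p = 9.75e-06). Of 15 tested NF-kB and cytokine feedback genes, 1 was higher in HSL than in basal cells (27.8% of all genes) and 9 lower (30.6%). Socs3, the feedback inhibitor of cytokine receptors, had 2453 ± 741 CPM in basal libraries, 234 ± 52.4 in AP libraries and 485 ± 158 in HSL libraries (SD, n = 6), a difference of -3.39 ± 0.26 for AP against basal (adjusted p = 8.45e-09).

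Of 20 other feedback genes, 6 were higher in HSL than in basal cells (27.8% of all genes were) and 11 lower (30.6%). Dusp4, a phosphatase of ERK that is no member of the 40, went the other way from the 4 Dusp members in HSL against basal cells: it had 15.3 ± 2.93 CPM in basal libraries, 88.1 ± 23 in AP libraries and 232 ± 76.5 in HSL libraries (SD, n = 6). HSL exceeded basal by 3.92 ± 0.24 (adjusted p = 2.07e-10) and AP by 1.40 ± 0.21 (adjusted p = 5.08e-05). Plk2, a stress kinase, was also higher in HSL than in basal cells (2.01 ± 0.17, adjusted p = 1.02e-08), while the ERK inhibitors Spry2 (-2.52 ± 0.26, adjusted p = 1.82e-07) and Spred1 (-2.19 ± 0.12, adjusted p = 8.78e-11) were lower.

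Per1, a clock gene that is also induced at once by cyclic AMP, was 44.2 to 125 CPM in basal (median 63.4), 75.6 to 157 in AP (median 93.7) and 23.4 to 65.7 in HSL libraries (median 43.6). Every HSL library lay below every AP library, by -1.24 ± 0.29 (adjusted p = 0.00213), and HSL was below basal by -0.68 ± 0.28 (adjusted p = 0.0466). The call against basal was lost in 8 of 14 alternatives, among them those without sample 2, 3, 4 or 5 (adjusted p = 0.0611, 0.0948, 0.0933 and 0.0784). The call against AP was lost with samples 1 to 3 alone (adjusted p = 0.0539).

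One choice of scaling shifts every value. With total counts in place of TMM factors, the median log2 fold change of all genes moved from -0.001 to 0.136 for AP against basal and from -0.011 to -0.185 for HSL against AP, and of the genes called between HSL and AP, the percentage higher in HSL fell from 49.6 to 35.6. For the members the calls were then 7 up (26.0% of all genes were) and 8 down (19.1%) for AP against basal cells. In HSL, counted against basal cells, they were 7 (25.6%) and 24 (30.3%), and for HSL against AP 3 (13.6%) and 24 (24.5%). No named call changed direction.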

How the data were processed

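Epithelial cells of 6 numbered samples were sorted into 3 populations. Smart-Seq v4 was used to make cDNA from 2 ng of RNA, and unstranded Nextera XT libraries were prepared from 150 pg of it. Groups and numbers come from the titles.

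The authors deposited whole-number gene counts, with 52636 identifiers a library. GRCm38 is the build in the submitters' processing notes; the aligner is not given in the sources used here, nor is the counting tool. Symbols, positions and exon lengths came from GENCODE M21 (52489 identifiers matched; the 147 others held at most 0.00677% of counts and were left out). The authors' RPKM column was left unused, since it rests on widths that, for 85.6% of genes, are the genomic span. A gene whose span another gene covers can be listed at 0, so 8 members that share over 10% of their exon bases have uncertain levels. Sharing was counted against whole gene spans, not against exons alone.

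Counts were fitted with edgeR 4.0.16 in R 4.3.3 (filterByExpr with a minimum count of 10, TMM, robust quasi-likelihood F test, Benjamini-Hochberg adjustment), using 1 mean per population over all 18 libraries. Sample number was tested in a second model with population. CPM per kilobase uses exon bases, and log2 CPM for correlations had a prior count of 2. Intervals are 95% from the standard error. DESeq2 1.42.0 and limma 3.58.1 (voom) were alternatives. Tables were handled with Python 3.11.15 and pandas 2.3.3. In simulated counts, 2-fold changes were recovered in 36% of 50 genes (AP against basal), 48% (HSL against basal) and 56% (HSL against AP). For 4-fold changes the values were 74, 70 and 72%. Those runs held 16157 to 16205 genes, with 50 changed at each fold of 1.5, 2, 4 and 8. In the data 39.9 to 58.4% of tested genes were called. Recovery for the members at their own levels was not tested.

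The series text names 6 animals. Deviations from population means correlated between libraries of 1 number with r from 0.127 to 0.63 in all 18 pairs, so the numbers were taken to pair the samples; blocked values stand beside results they change. The members and lists were chosen with earlier results of these data known. Lowest, median and highest values are given for up to 5 members called in each direction per comparison with the largest folds at 10 CPM or more, the 5 most abundant per kilobase, up to 5 called for sample number and up to 4 called in no comparison; those of other members were added after they were seen. Promoter windows of 300 bases are from RefSeq (GRCm38.p6), for 34 of 40 members.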

Additional observations from a re-analysis of the deposited data

Results flagged for a closer look

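Each value here is a library that stood far from the other 5 of its population, by a gap test at the 95% level. In the 81 sets tested, chance would flag about 4, and 6 were flagged, all in sample 1. In HSL libraries Atf3 was lowest in sample 1, at 1359 CPM with the next library at 3423, and Btg1 was lowest at 154 CPM with the next at 236. Egr2 was highest in the HSL library of sample 1, at 31 CPM with the next at 14.3, and Egr3 at 19.9 CPM with the next at 4.28. In AP libraries Ier2 was lowest in sample 1, at 399.9 CPM with the next at 634, and Junb at 877 CPM with the next at 1496.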

How the results depend on the processing

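No called result reversed direction under any alternative run. With the sample number as a replicate block, members higher in AP than in basal cells went from 5 to 9. Over all genes that share went from 21.5 to 26.7%. Members lower in AP went from 8 to 13 (from 23.1 to 28.4% of all genes). Samples 1 to 3 alone gave 2 higher and 4 lower (10.2 and 11.9% of all genes), and samples 4 to 6 alone 11 higher (23.3%). Of the 8 members higher in HSL than in basal cells, leaving out 1 sample number left 5 to 7 (5 without sample 4 or 6). In those runs 23.8 to 30.3% of all genes were higher, against 27.8% with all samples. Samples 1 to 3 alone left 2 (15% of all genes). Of the 4 higher in HSL than in AP, leaving out one number left 2 to 4 (2 without sample 3, 5 or 6). In those runs 14.0 to 23.3% of all genes were higher. Samples 1 to 3 alone left 0 (2.63% of all genes). The 32 members that share 10% or less of their exon bases held 2 of the 4, an alternative chosen after seeing the data. Of the 23 lower in HSL than in AP, samples 1 to 3 alone gave 8 (6.23% of all genes). Single-gene calls between populations were followed for up to 5 members in each direction per comparison, those with the largest folds. Of these 29 calls, samples 1 to 3 alone kept 18 and lost 11, and some calls of other members were lost as well. Samples 4 to 6 alone kept all 29. Both runs have 3 libraries a population in place of 6. The cause of lost calls was not tested for any setting. DESeq2 and limma-voom kept every count of calls within 1.5 times. The block changed no other count of calls by over 1.5 times. Precision is limited by 6 libraries a population, by overlapping genes, whose counts may be incomplete, and by the use of 1 digestion protocol for all samples.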
